A study of Mus musculus with 20 samples.

Results

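Livers of NFIL3 knockout mice given tunicamycin (NFIL3 KO tunicamycin, 5 arrays) were compared with livers of wild-type mice given the same drug (WT tunicamycin, 5 arrays), gene by gene, over every probeset of the array. The members were taken from the array titles alone and made up 10 of the 20 arrays of the series. The other 10 arrays were livers of NFIL3 KO and WT mice given vehicle (5 each), and they entered the fit that set the error. All animals were adult male C57Bl6 mice (C57BL/6J in the methods of the study), with 1 liver per array. The knockouts were Nfil3-/- throughout the body and the WT animals were their littermates, so a difference may arise outside hepatocytes as well. Tunicamycin was injected intraperitoneally at 1 µg per g of body weight, vehicle was dextrose, and livers were taken 8 h later.

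NFIL3, also called E4BP4, is a basic leucine zipper protein that binds the D-box, a short palindromic DNA element. It represses transcription from sites at which its relatives HLF, TEF and DBP, the PAR-bZIP factors, activate it, and in liver these factors control many genes of drug and lipid metabolism. Tunicamycin blocks the first step of protein N-glycosylation, unfolded proteins build up in the endoplasmic reticulum (ER), and the ER stress that follows induces chaperones and the transcription factors of the unfolded protein response. The comparison asks which transcripts of a stressed liver differ when NFIL3 is missing.

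The values were log2 intensities, and a gene is given as the mean of the probesets that carry its symbol alone. A difference of 1 on this scale is a 2-fold difference. A gene is said to be called, or to have risen or fallen in NFIL3 KO livers, where the adjusted p of limma's moderated test over all genes (Benjamini-Hochberg) was below 0.05. Of 22180 genes, 54 were called (0.243% of the genes tested), 39 of them higher (0.176%) and 15 lower (0.0676%) in NFIL3 KO livers. Before adjustment, 1986 genes had a p under 0.05 (8.95%), 926 higher and 1060 lower. The differences of the called genes had sizes of 0.42 and above with a median of 0.79, and 18 of them reached a difference of 1, of which 15 were higher and 3 lower. Among the 54, all 5 NFIL3 KO arrays lay above all 5 WT arrays for 36 genes and below them for 11, which over all genes happened for 0.712% and 0.78%. In the other 7, Slco1a4, Sgk2, Ank3, Pmm1, Smim10l1, Ddx21 and Apoa5, at least 1 array of each group overlapped. RefSeq lists 49 of the 54 as protein-coding genes, 4 as long non-coding RNAs and 1 as a pseudogene.

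The depth of an array is not defined, and with 5 arrays a group the number of arrays limits the precision. Any 2 arrays correlated at 0.947 to 0.986 over all genes. NFIL3 KO tunicamycin replicate 3 stood apart: on the axis that separates tunicamycin from vehicle it scored 16.7, against 42.6 to 57.9 for the other tunicamycin arrays. Without it, 67 genes were called. Albumin transcript (Alb) averaged 13.51 ± 0.03 in NFIL3 KO and 13.49 ± 0.04 in WT tunicamycin livers (SD, n = 5 each), and the mean level of 12 hepatocyte markers was 11.59 to 11.76 on NFIL3 KO arrays and 11.65 to 11.77 on WT arrays. In whole liver, fewer cells of a type and less RNA per cell cannot be told apart.

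**Figure D1:**
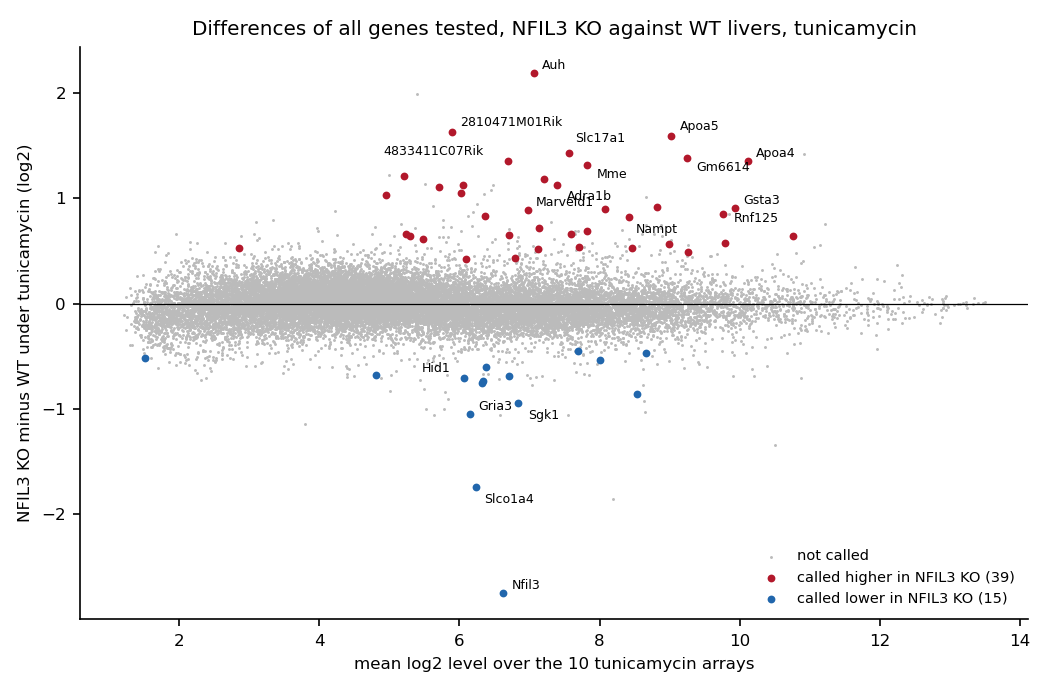
Difference of every gene tested (NFIL3 KO minus WT under tunicamycin, log2, vertical axis) against its mean log2 level over the 10 tunicamycin arrays (horizontal axis). The 39 genes called higher are red, the 15 called lower are blue and genes not called are grey; Auh (2.19) and Nfil3 (-2.75) lie at the extremes of the called genes.

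The targeted gene came first among the genes called lower. Nfil3 levels were 5.99, 4.95, 5.07, 4.83 and 5.40 in NFIL3 KO livers, against 7.95, 8.55, 7.67, 7.42 and 8.38 in WT livers given tunicamycin. The groups did not overlap, and the difference was -2.75 (SE 0.23, adjusted p = 4.09e-07), a fold size of 6.72. Under vehicle, Nfil3 averaged 5.41 ± 0.20 in NFIL3 KO livers and 6.44 ± 0.45 in WT livers (SD, n = 5 each), a difference of -1.03 with an adjusted p of 0.227. Relative to vehicle of the same genotype, tunicamycin moved Nfil3 by -0.17 in knockouts and by 1.55 in WT animals. The 2 genotypes' responses differed by -1.72, with an adjusted interaction p of 0.218 over all genes. The sources used here do not say which exons were removed or where the Nfil3 probes of the array sit, so the level that remains in the knockouts is not a measure of intact transcript.

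Auh, which encodes a mitochondrial enzyme of leucine breakdown that also binds AU-rich RNA, showed the largest rise of any called gene. Its levels were 8.20, 8.31, 7.57, 8.34 and 8.38 in NFIL3 KO livers and 6.05, 6.42, 5.95, 5.68 and 5.75 in WT livers given tunicamycin. The lowest NFIL3 KO value, in replicate 3, was still more than 1 log2 unit above the highest WT value. The difference was 2.19 (SE 0.14, adjusted p = 4.85e-09), a fold size of 4.56. Under vehicle the same gene averaged 7.08 ± 0.07 in NFIL3 KO and 6.45 ± 0.10 in WT livers (SD, n = 5 each), a difference of 0.63 (adjusted p = 0.207). Auh changed with tunicamycin by 1.08 in knockouts and by -0.48 in WT animals, and this interaction was called (1.56, adjusted p = 0.00167).

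Auh is the next measured protein-coding gene to Nfil3 on chromosome 13 in the RefSeq order. Of the 15 measured protein-coding genes on either side of Nfil3, 30 in all, Auh alone was called. Of 858 measured genes of chromosome 13, 4 were called (Nfil3, Auh, Slc17a1 and Zfp493). That was 0.466%, against 0.243% of all genes and 0.556% on chromosome 19. Syk, the neighbour beyond Auh, and Ror2, the neighbour on the other side of Nfil3, were not called under tunicamycin. At the level of single probesets, 25 of 41345 were called (0.0605%), 20 higher and 5 lower. The one with the largest difference on the whole array was one with no gene symbol, 17292632, whose number lies between those of the Auh and Nfil3 probesets. Its levels were 10.6, 10.8, 9.50, 10.9 and 10.5 in NFIL3 KO livers, against 6.21, 5.81, 5.66, 4.99 and 5.82 in WT livers given tunicamycin. It rose by 4.77 (SE 0.35, adjusted p = 3.58e-07 over the 41345 probesets), a fold size of 27.2, and under vehicle it was higher by 3.52 (adjusted p = 0.000133). Successive named probesets on this array lie on 1 chromosome in 98.5% of 23142 pairs, but the position of this probeset is not given in the sources used here. It was singled out after its values were seen, as were other genes described below that are not among the 15 largest rises or falls without overlap, the xenobiotic panel or the gene lists.

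**Figure D2:**
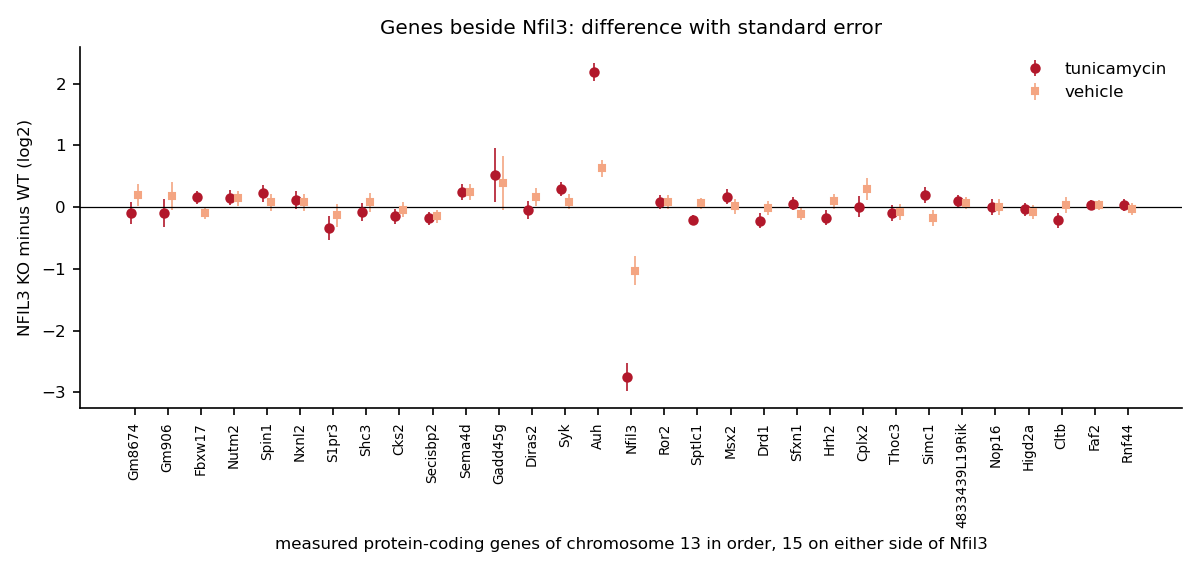
NFIL3 KO minus WT difference (log2, vertical axis, bars are standard errors) of Nfil3 and the 15 measured protein-coding genes on either side of it, in chromosome order. Red circles are livers given tunicamycin and orange squares livers given vehicle; Auh stands at 2.19 under tunicamycin and 0.63 under vehicle, Nfil3 at -2.75 and -1.03, and no other gene shown was called under tunicamycin.

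None of the PAR-bZIP activators that share the D-box with NFIL3 was called. Hlf levels were 5.93, 5.87, 6.51, 6.20 and 6.36 in NFIL3 KO and 6.15, 5.94, 6.65, 6.30 and 5.99 in WT livers given tunicamycin, a difference of -0.04 with a 95% interval of -0.33 to 0.26. This value turned positive without NFIL3 KO replicate 1 (0.03), NFIL3 KO replicate 2 (0.04) or WT replicate 3 (0.08). The interval was -0.12 to 0.27 for Tef and -0.89 to 0.07 for Dbp, a strongly circadian transcript. Of 17 circadian clock genes measured, Nfil3 was the only one called, and the median difference of the list was 0.07. Of 16 reported NFIL3 or PAR-bZIP targets none was called, against 0.243% of all genes. At an unadjusted p under 0.05, 4 of the 16 differed, 2 in each direction, against 8.95% of all genes. The absence of a call in so short a list does not show that these targets are unaffected. Cyp2a5, a cytochrome P450 of that list, had 5.07, 5.30, 4.83, 5.51 and 4.40 in NFIL3 KO livers. In WT livers it had 6.04, 6.02, 6.31, 5.76 and 5.99 (difference -1.003, adjusted p = 0.115).

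Of 5 genes of xenobiotic metabolism on which the study itself focused, Gsta3 and Cyp3a11 were called higher in NFIL3 KO livers. The study drew these 5 from a list made on this same contrast, so their direction is not independent evidence. Gsta3, a glutathione transferase that detoxifies electrophiles, had 10.2, 10.6, 10.3, 10.7 and 10.2 in NFIL3 KO livers, against 9.52, 9.73, 9.63, 9.08 and 9.46 in WT livers. The difference was 0.91 (SE 0.13, adjusted p = 0.00144), and no NFIL3 KO array reached down to the WT arrays. Cyp3a11, the main drug-oxidizing P450 of mouse liver, had 11.11, 11.33, 10.96, 10.96 and 11.02 in NFIL3 KO livers, against 10.51, 10.24, 10.66, 10.08 and 10.66 in WT livers. Its difference was 0.64 (SE 0.13, adjusted p = 0.0399), and the call was kept only without NFIL3 KO replicate 3, WT replicate 3 or WT replicate 5 among the 10 tunicamycin arrays (adjusted p up to 0.143 without one of the others). The other 3 were not called: the difference was 0.31 for Adh1, an alcohol dehydrogenase (95% interval 0.07 to 0.54, adjusted p = 0.404), 0.28 for Fmo5, a flavin monooxygenase (-0.02 to 0.58), and 0.23 for Ugt2b1, a glucuronosyltransferase (-0.04 to 0.51). Around these genes, 1 of 38 cytochrome P450 genes was called, 1 of 18 glutathione transferases and 0 of 23 UDP-glucuronosyl and sulfotransferases, against 0.243% of all genes. At an unadjusted p under 0.05, 5 of the P450 genes were higher and 4 lower. So were 4 glutathione transferases higher and 2 lower, and 2 UDP-glucuronosyl and sulfotransferases lower. Over all genes 8.95% had such a p. The list medians were -0.06, 0.05 and -0.11, against -0.001 over all genes.

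Slc17a1, a phosphate and urate transporter of hepatocytes and kidney tubule, had 8.41, 8.34, 8.05, 8.25 and 8.38 in NFIL3 KO livers and 7.08, 6.87, 6.80, 6.71 and 6.79 in WT livers given tunicamycin. The gap between the groups was wider than the spread of either, with a difference of 1.43 (SE 0.12, adjusted p = 4.01e-07) and a fold size of 2.70. It was also called under vehicle, at 8.19 ± 0.27 in NFIL3 KO and 7.05 ± 0.17 in WT livers (SD, n = 5 each; difference 1.14, adjusted p = 5.80e-05). The related genes Slc17a2, Slc17a3 and Slc17a4 differed by -0.07, 0.45 and 0.58 and were not called (adjusted p of 0.915, 0.273 and 0.444); the Slc17a2 value turned positive without NFIL3 KO replicate 4 (0.0099) or WT replicate 3 (0.0055). Slc17a8, a vesicular glutamate transporter, was higher by 1.13 (adjusted p = 0.031), but kept its call only without NFIL3 KO replicate 3 or WT replicate 2 when 1 tunicamycin array was left out (adjusted p up to 0.0959).

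Adra1b, the alpha-1B adrenergic receptor through which catecholamines act on rodent hepatocytes, differed under tunicamycin and hardly under vehicle. Its levels were 7.85, 8.15, 7.64, 8.14 and 7.99 in NFIL3 KO livers and 6.81, 6.90, 6.68, 6.99 and 6.76 in WT livers given tunicamycin, a difference of 1.12 (SE 0.12, adjusted p = 1.13e-05). Under vehicle it averaged 8.14 ± 0.23 in NFIL3 KO and 8.08 ± 0.14 in WT livers (SD, n = 5 each). Relative to vehicle of the same genotype, tunicamycin moved it by -0.19 in knockouts and by -1.25 in WT animals, and this interaction of 1.06 was called (adjusted p = 0.0171). The interaction missed the threshold, with adjusted p of 0.0515 to 0.0576, when NFIL3 KO tunicamycin replicate 2, 4 or 5, WT tunicamycin replicate 3 or 5, NFIL3 KO vehicle replicate 2 or WT vehicle replicate 3 or 4 was left out. Mme, which encodes the peptidase neprilysin, was higher by 1.31 (adjusted p = 0.014; 0.051 without WT replicate 4). Nat8, an N-acetyltransferase of the mercapturic acid pathway, was higher by 1.11 (adjusted p = 0.0117) and by 1.13 under vehicle (adjusted p = 0.0373; up to 0.140 with 1 vehicle array left out, and kept only without WT vehicle replicate 4).

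Slco1a4 and Gm6614, which lie 2 steps apart on chromosome 6 in the RefSeq order, went opposite ways. Slco1a4, which takes up bile salts and other organic anions, had 5.61, 5.75, 6.10, 4.96 and 4.39 in NFIL3 KO livers and 7.96, 7.57, 6.63, 6.03 and 7.31 in WT livers given tunicamycin. The highest NFIL3 KO array overlapped the lowest WT array, and the difference was -1.74 (SE 0.36, adjusted p = 0.0399). This call was kept only without NFIL3 KO replicate 3, WT replicate 3 or WT replicate 4 (adjusted p up to 0.135 without one of the others), and under vehicle the difference was -1.67 (adjusted p = 0.186). Gm6614, annotated in RefSeq near it, had 9.87, 10.1, 9.93, 9.85 and 9.92 in NFIL3 KO livers and 8.49, 8.86, 8.63, 8.63 and 8.20 in WT livers, a difference of 1.38 (adjusted p = 0.0013). Under vehicle it averaged 3.60 ± 0.37 in NFIL3 KO and 2.87 ± 0.52 in WT livers (SD, n = 5 each). Slco1a1 of the same family differed by 0.15 (adjusted p = 0.721). Slco1a4, Cyp3a11, Hsd3b3 and Nat8 have close relatives in the genome, and whether their probes also read those relatives was not tested.

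**Figure D3:**
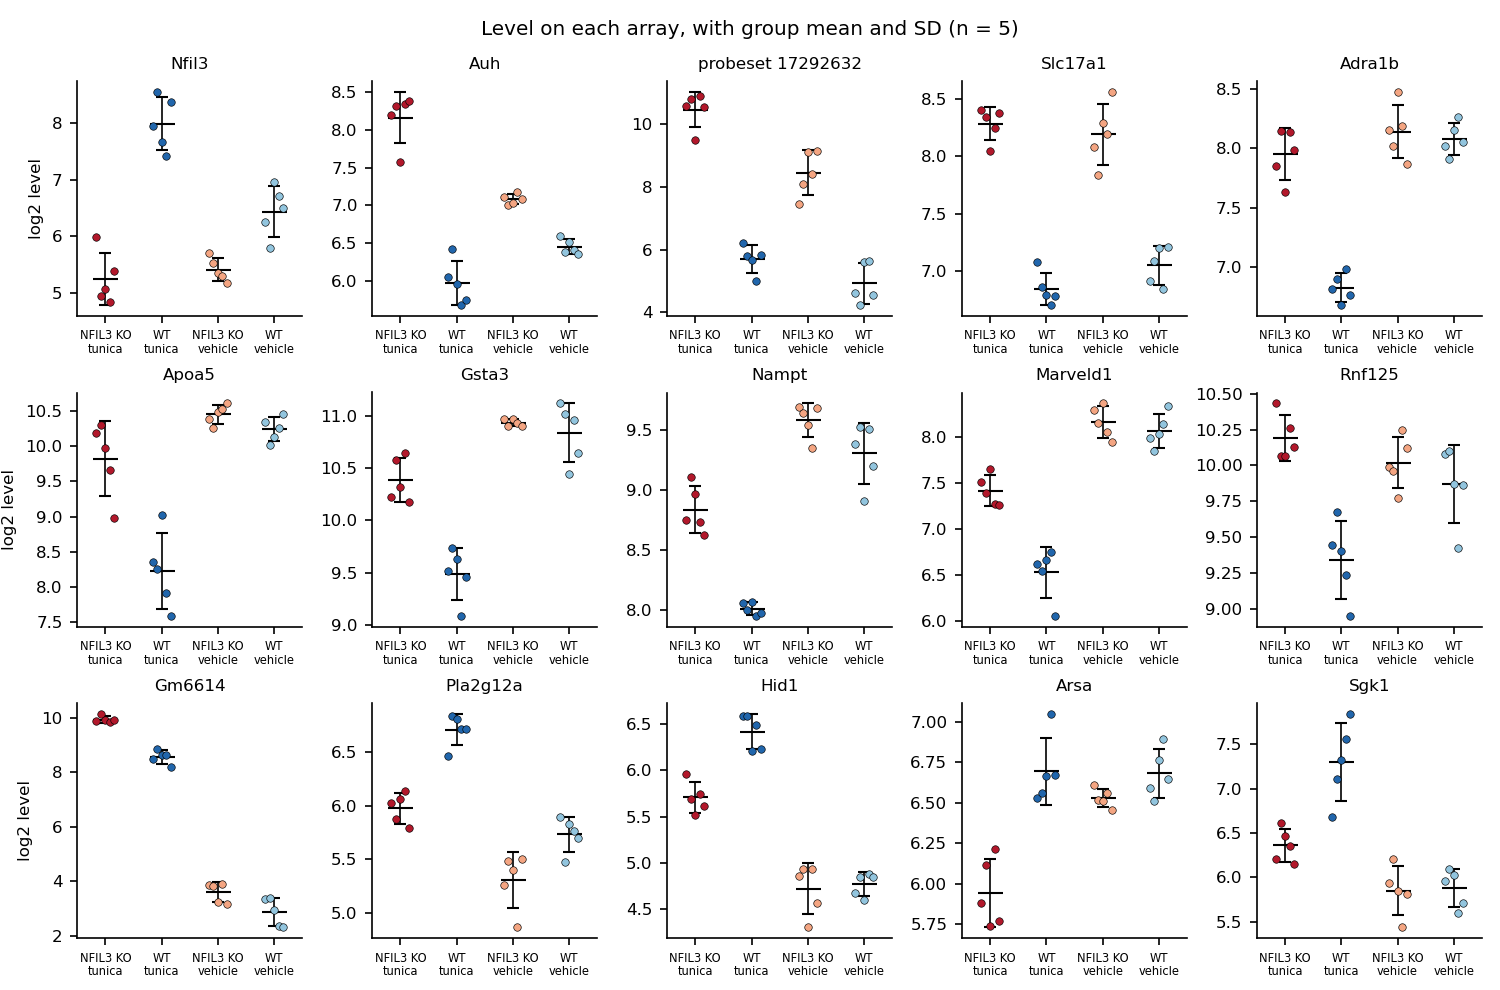
Level on every array (points, log2) with the group mean and SD (bars, n = 5) for 14 genes and the unnamed probeset 17292632. In each panel the groups run NFIL3 KO tunicamycin, WT tunicamycin, NFIL3 KO vehicle and WT vehicle; for Adra1b and Apoa5 the vehicle groups overlap, and for Slc17a1 the vehicle groups are apart as well.

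Of 28 apolipoproteins and secreted proteins, 2 rose (7.14%, against 0.243% of all genes), and both lie in 1 cluster on chromosome 9. Of 25 genes of fatty acid oxidation and ketogenesis and 23 of fatty acid and triglyceride synthesis, 0 were called. At an unadjusted p under 0.05 in limma's test, 3 and 4 of them differed, against 8.95% of all genes. Apoa5, a secreted activator of plasma triglyceride breakdown, had 10.2, 10.3, 9.97, 9.66 and 8.97 in NFIL3 KO livers, against 8.35, 8.25, 9.02, 7.91 and 7.58 in WT livers given tunicamycin. NFIL3 KO replicate 5 lay just below WT replicate 3, the only overlap, and the difference was 1.59 (SE 0.22, adjusted p = 0.00112, fold size 3.02). Under vehicle Apoa5 differed by 0.21 (adjusted p = 0.989). Apoa4, an apolipoprotein of chylomicrons and of liver-derived particles, was higher by 1.35 (SE 0.28, adjusted p = 0.042), but its call was kept only without WT replicate 3 (adjusted p up to 0.133 without any other). Apoc3 and Apoa1, in the same cluster, differed by 0.23 and -0.02 (adjusted p of 0.299 and 0.965); the Apoa1 value was 0.007005 without WT replicate 3. Elovl3, a fatty acid elongase, had 11.91, 11.61, 11.01, 11.58 and 12.05 in NFIL3 KO and 10.44, 11.44, 9.98, 9.24 and 9.97 in WT livers, and its difference of 1.42 missed the threshold (adjusted p = 0.052). Cyp39a1, an oxysterol hydroxylase of bile acid synthesis, differed by 1.01 (adjusted p = 0.084), and of 28 genes of bile acid synthesis and transport Slco1a4 was the only one called.

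Nampt, the rate-limiting enzyme of NAD salvage, had 8.75, 9.11, 8.96, 8.74 and 8.63 in NFIL3 KO livers, against 8.06, 8.00, 8.07, 7.95 and 7.97 in WT livers given tunicamycin. The WT arrays spanned a narrow range that all NFIL3 KO arrays exceeded, and the difference was 0.83 (SE 0.11, adjusted p = 0.00112). Rnf125, a ubiquitin ligase, and Marveld1, a MARVEL-domain membrane protein, were higher by 0.85 (adjusted p = 0.00462) and 0.89 (adjusted p = 0.0013). Hsd3b3, of the 3-beta-hydroxysteroid dehydrogenase family, was higher by 0.90 (adjusted p = 0.0291), but lost its call without NFIL3 KO replicates 1, 2, 4 or 5 or WT replicates 1 or 4 (adjusted p up to 0.104). Mbl1, a mannose-binding lectin that activates complement, was the only one of 33 coagulation and complement genes called, at 0.92 (adjusted p = 0.0349). Mbl1 lost the call without NFIL3 KO replicates 1 or 2 or WT replicates 1, 2 or 5 (adjusted p up to 0.116). At an unadjusted p under 0.05, 2 genes of that list were higher and 3 lower. Over all genes 0.243% were called and 8.95% had such a p. Serpina12, the secreted protein vaspin, was higher by 1.03 with an adjusted p of 0.04996, and kept its call only without NFIL3 KO replicate 3 or WT replicate 2 (adjusted p up to 0.155).

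Zbtb16, the zinc finger repressor PLZF, had 7.33, 7.77, 8.71, 7.83 and 7.32 in NFIL3 KO livers, against 6.48, 6.70, 6.45, 6.65 and 6.77 in WT livers given tunicamycin. Its difference was 1.18 (adjusted p = 0.031), and 6 of the 10 tunicamycin arrays could not be left out without losing the call: NFIL3 KO replicates 2 and 4 and WT replicates 1 to 4 (adjusted p up to 0.0813). Lonrf3, a RING-finger protein, was higher by 1.22 (adjusted p = 0.0064). Zfp982, a zinc finger protein, was higher by 1.05 (adjusted p = 0.0399; called only without WT replicate 2 when 1 tunicamycin array was left out, up to 0.129 otherwise). Polr2b, the second largest subunit of RNA polymerase II, was higher by 0.58 (adjusted p = 0.00366), and its neighbour Noa1, a mitochondrial GTPase, by 0.52 (adjusted p = 0.0441; up to 0.148 with 1 array left out, and called only without NFIL3 KO replicate 3 or WT replicate 2). The transcripts, 2810471M01Rik and 4833411C07Rik, were higher by 1.63 (adjusted p = 0.00136) and 1.35 (adjusted p = 0.00112).

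Among the 15 genes that fell, 2 encode kinases of the serum- and glucocorticoid-regulated family. Sgk1, which controls ion transport, had 6.21, 6.61, 6.47, 6.36 and 6.16 in NFIL3 KO livers and 6.68, 7.11, 7.32, 7.56 and 7.84 in WT livers given tunicamycin. It was lower by 0.94 on the log2 scale (adjusted p = 0.0162), and lost the call without NFIL3 KO replicate 1 or 5 (0.056 each) or WT replicate 4 (0.059). Sgk2 levels were 8.04, 7.71, 7.87, 8.67 and 8.23 in NFIL3 KO livers and 8.62, 9.10, 8.77, 9.23 and 9.10 in WT livers, with 1 NFIL3 KO array inside the WT range (difference -0.86, adjusted p = 0.0117). Under vehicle, Sgk1 differed by -0.03 and Sgk2 by -0.21.

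Gria3, a subunit of AMPA-type glutamate receptors, was lower by 1.05 on the log2 scale (adjusted p = 0.0162). Its adjusted p was 0.069 without NFIL3 KO replicate 2 and 0.056 without NFIL3 KO replicate 4. Relative to vehicle of the same genotype, Gria3 rose by 0.72 in knockouts and by 1.86 in WT animals. Arsa, the lysosomal arylsulfatase A, had 5.88, 6.12, 5.74, 6.21 and 5.77 in NFIL3 KO livers, against 6.53, 6.56, 6.66, 7.05 and 6.67 in WT livers (difference -0.75, adjusted p = 0.00144). Pla2g12a, a secreted phospholipase A2, had 6.02, 5.87, 6.06, 6.14 and 5.79 in NFIL3 KO livers, against 6.47, 6.84, 6.81, 6.72 and 6.71 in WT livers (difference -0.73, adjusted p = 0.00449). Hid1, which acts in secretory granule formation, differed by -0.71 (adjusted p = 0.011). Arsa, Pla2g12a and Hid1 were called whichever tunicamycin array was left out, but Arsa lost its call with the 10 tunicamycin arrays alone (adjusted p = 0.0529). Smaller falls were called in Fam187b (-0.68), Tmem86b (-0.53), a lysoplasmalogenase, Yif1a (-0.47), an ER to Golgi transport protein, and Dhx37 (-0.45), an RNA helicase of ribosome assembly, and each lost its call without at least 7 of the 10 arrays, with adjusted p up to 0.105, 0.117, 0.116 and 0.172.

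Leaving out 1 of the 10 tunicamycin arrays at a time, 21 of the 54 genes were called every time, 16 higher and 5 lower. Of these, 14 were called in every alternative that tested them, 11 higher and 3 lower: Auh, Slc17a1, Adra1b, Apoa5, Gsta3, Nampt, Rnf125, Marveld1, Gm6614, 2810471M01Rik, 4833411C07Rik, Nfil3, Pla2g12a and Hid1. That was 28 alternatives for each but 2810471M01Rik, which had 27, being left out with the genes below median brightness. Arsa, Wbp1l, Polr2b, Mcc, Lonrf3, Sgk2 and Nat8 lost the call with the 10 tunicamycin arrays alone, and Sgk2 and Nat8 also without moderation. No called gene changed direction in any alternative.

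The same genotype contrast in vehicle livers rests on 10 other arrays. There, 5 genes were called (0.0225%), all higher in NFIL3 KO livers: Slc17a1, Nat8, Nat8f3, Osbpl3 and Mir1945. Slc17a1 and Nat8 were also among the 54, and Slc17a1 and Osbpl3 were called under vehicle whichever array was left out. Before adjustment 1184 genes had a p under 0.05. Without 1 vehicle array the count was 2 to 7, with 2 without NFIL3 KO replicate 3 or WT replicates 1, 3 or 5 and 3 without NFIL3 KO replicate 1. Osbpl3, an oxysterol-binding protein, differed by 1.52 under vehicle (adjusted p = 0.00311) and by 0.36 under tunicamycin (adjusted p = 0.639). The tunicamycin difference was 0.14 without NFIL3 KO replicate 3, which was at 5.52 against 4.31 to 4.54 on the other NFIL3 KO arrays. Of the 54 genes, 46 had the same sign under vehicle (85.2%), against 12574 of all 22180 genes (56.7%). The 54 were chosen by the tunicamycin contrast, which favours large values in it, and 53 of them had a smaller difference under vehicle. Auh and Adra1b were the only 2 genes with a called interaction (0.00902%), with 1019 genes at an unadjusted p under 0.05; leaving out 1 array gave 1 to 3 such genes, and Auh was called each time. The contrasts under tunicamycin and of the responses share arrays, so they are given side by side and not as separate evidence.

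**Figure D4:**
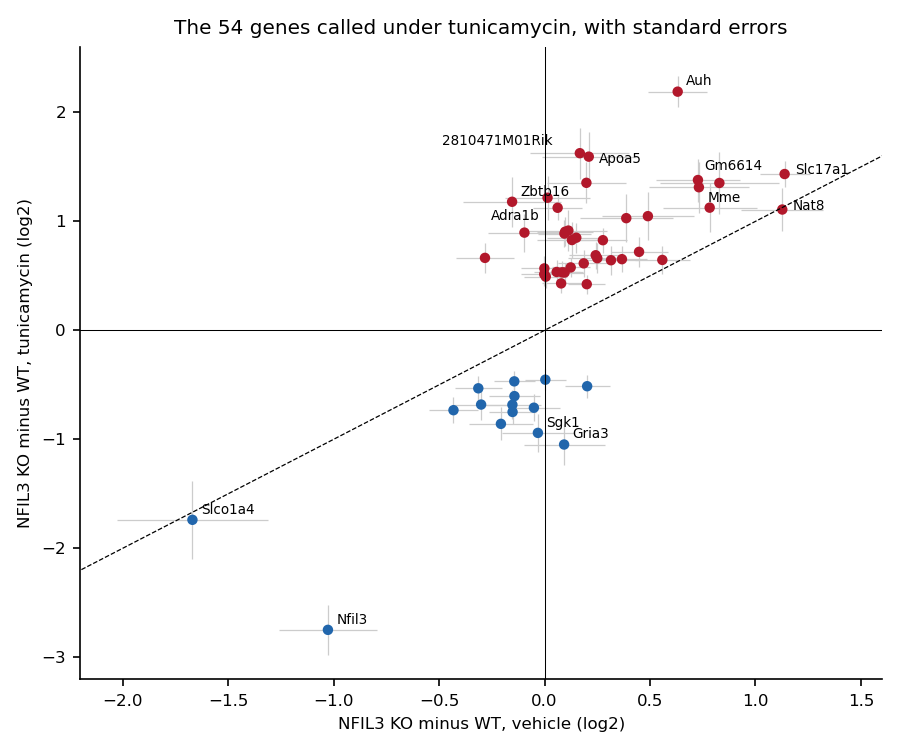
NFIL3 KO minus WT difference under tunicamycin (log2, vertical axis) against that under vehicle (log2, horizontal axis) for the 54 genes called under tunicamycin, with standard errors as grey lines. Red genes were called higher and blue lower; on the dashed line both differences are equal, with Nat8 and Slco1a4 close to it and Auh, Apoa5 and Nfil3 far from it.

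None of the genes listed for the ER stress response was called. The ER to Golgi transport gene Yif1a, called lower above (-0.47), is not on these lists. In 15 sensors and transcription factors of the unfolded protein response the median difference between NFIL3 KO and WT was -0.04, in 26 ER chaperones -0.07, in 23 genes of ER-associated degradation -0.05, in 34 N-glycosylation genes -0.10 and in 27 targets of ATF4 and CHOP -0.06, with 0 called in each. At an unadjusted p under 0.05 in limma's test, 0, 3, 1, 3 and 2 of their members differed. Over all genes 0.243% were called and 8.95% had such a p. Lists of this size are therefore likely to hold no called gene, and 0 called does not show that they are unaffected. Hspa5, the chaperone BiP, averaged 11.90 ± 0.08 in NFIL3 KO and 11.85 ± 0.04 in WT livers given tunicamycin (SD, n = 5 each), and Ddit3, which encodes CHOP, 11.32 ± 0.29 in NFIL3 KO and 11.45 ± 0.11 in WT livers. Under vehicle their means were 9.74 in both genotypes for Hspa5, and 6.76 in NFIL3 KO and 5.97 in WT livers for Ddit3. The mean level of the 15 sensors and factors was 9.17 in NFIL3 KO replicate 3, against 9.53 to 9.76 on the other NFIL3 KO arrays and 9.52 to 9.63 on WT arrays. Below 0 lay 12 of the 15 sensors and factors, 20 of the 26 chaperones and 15 of the 23 degradation genes. So did 30 of the 34 N-glycosylation genes and 16 of the 27 ATF4 and CHOP targets. Of 36 genes of ER translocation and COPII transport, 26 lay below 0 and 0 were called (4 lower at an unadjusted p under 0.05). Ddit4, an inhibitor of mTORC1, had the largest difference of these lists and went the other way, at 0.77 (adjusted p = 0.225). NFIL3 KO replicate 3 was the lowest of the 10 tunicamycin arrays in the mean level of each of these lists. For the degradation genes it was at 9.45, against 9.65 to 9.74 on the other NFIL3 KO arrays and 9.59 to 9.75 on WT arrays. For the ATF4 and CHOP targets it was at 7.61, against 7.88 to 8.18 and 7.88 to 8.03. The median difference over all genes was -0.001. How far the counts below 0 rest on that array was not tested, nor whether any list shifted as a set.

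Of 58 gene lists, 46 held no called gene. With 0.243% of all genes called, a short list is likely to hold none. An empty list therefore does not show that its genes are unaffected. The LIVER-ID list, the study's hepatic identity genes, had 5 of 493 measured members called, all higher (Apoa5, Cyp3a11, Gsta3, Hsd3b3 and Wbp1l), with a median of -0.01. This was 1.01% of the list, against 0.243% of all genes, and 35 members were higher and 27 lower at an unadjusted p under 0.05. Over all genes 8.95% had such a p. Of 38 LIVER-ID transcription factors 0 were called (median -0.03; 4 at an unadjusted p under 0.05, 2 in each direction). UBQ genes are those at which broad domains of H3K4me3, a mark of active promoters, occur in liver and across other tissues. Of 517 such genes 3 were called (0.580%), all lower (Ank3, Nfil3 and Sgk1). Nfil3 is the targeted gene, so its call is not evidence about the list. The 26 Core Enrichment genes were all above 0, with a median of 0.32 and 2 called (Gsta3 and Cyp3a11), but the study selected that list on this very contrast, so its direction is not independent evidence. In 19 cholesterol synthesis genes 18 were below 0 with a median of -0.22 and none called (6 lower at an unadjusted p under 0.05), and Sqle, squalene epoxidase, had the largest difference, -0.53 (adjusted p = 0.514). The 23 acute-phase genes had a median of -0.18 with wide scatter: Orm2, an acute-phase glycoprotein, ran from 5.68 to 8.71 in NFIL3 KO livers and from 7.26 to 12.0 in WT livers given tunicamycin (difference -1.85, adjusted p = 0.496).

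**Figure D5:**
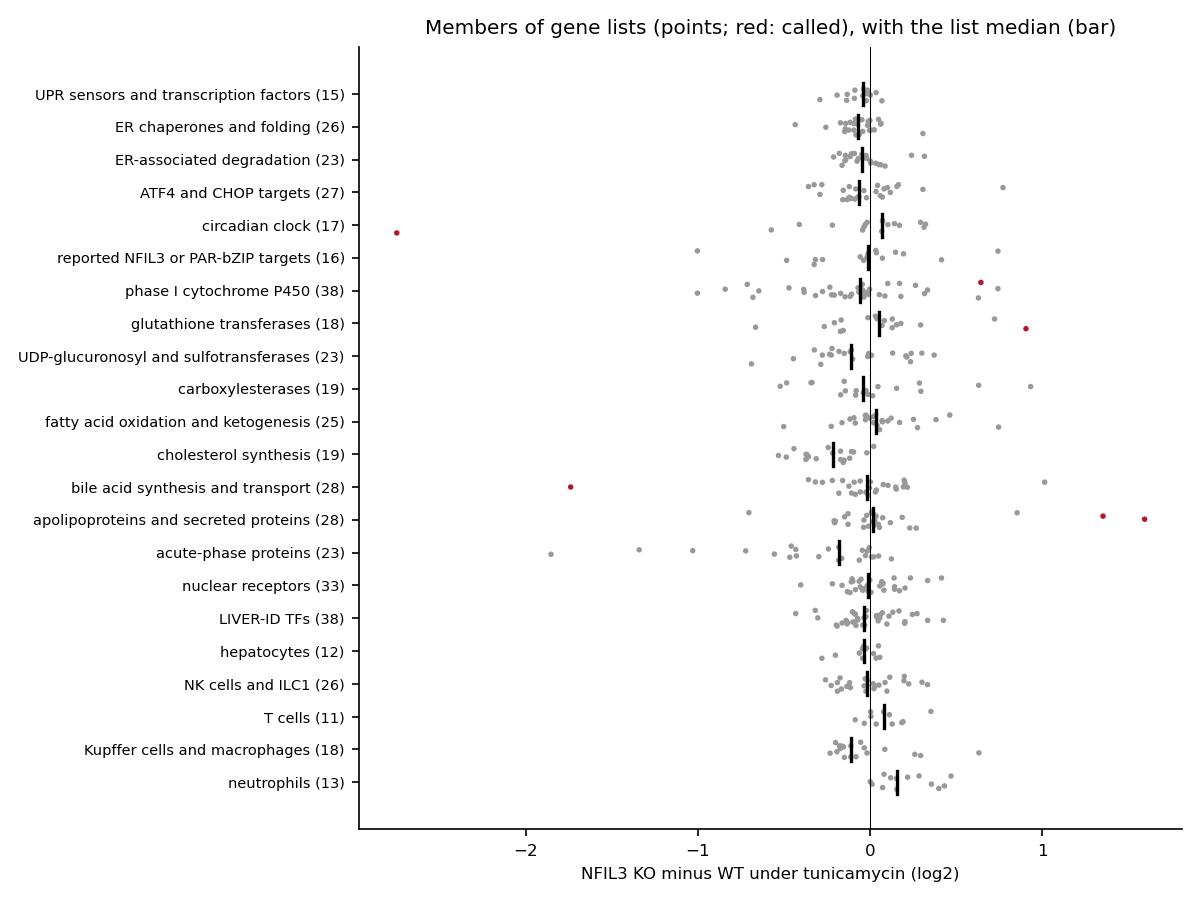
NFIL3 KO minus WT difference under tunicamycin (log2, horizontal axis) of the members of 22 gene lists (points, red where called), with the list median as a bar and the number of measured members in parentheses. The 5 lists with red points are circadian clock, cytochrome P450, glutathione transferases, bile acid, and apolipoproteins, and no list median lies beyond -0.22 or 0.15.

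NFIL3 is needed for the development of natural killer cells, so markers of cells other than hepatocytes were read as well. Of 26 NK cell and ILC1 markers 0 were called and the median difference was -0.02; 20 of them lay below the level of the median gene, and their mean level was 3.97 to 4.24 on NFIL3 KO arrays and 4.03 to 4.16 on WT arrays. The defining marker Ncr1 averaged 4.04 ± 0.22 in NFIL3 KO and 3.81 ± 0.33 in WT livers given tunicamycin, and Eomes 3.04 ± 0.21 in NFIL3 KO and 3.23 ± 0.18 in WT livers (SD, n = 5 each). At an unadjusted p under 0.05 in limma's test, 2 of the NK cell and ILC1 markers differed, 1 higher and 1 lower. All 13 neutrophil markers were above 0 with a median of 0.15 and 0 called (3 at an unadjusted p under 0.05); all 13 lay below the level of the median gene, and their mean level was 3.73 to 4.34 on NFIL3 KO arrays and 3.76 to 3.92 on WT arrays. Of 15 dendritic cell markers 0 were called and 4 were higher at an unadjusted p under 0.05, with a mean level of 5.51 to 5.79 on NFIL3 KO arrays and 5.37 to 5.67 on WT arrays. Of 22 NF-kB targets and chemokines 20 were above 0 with 0 called (2 at an unadjusted p under 0.05); NFIL3 KO replicate 2 had a mean level of 6.86, against 5.44 to 5.60 on the other NFIL3 KO arrays and 5.47 to 5.65 on WT arrays. The chemokine Cxcl1 was at 10.1 on that array and at 5.76 to 6.86 on the other NFIL3 KO arrays. Over all genes 0.243% were called and 8.95% had an unadjusted p under 0.05. Lists of this size are therefore likely to hold no called gene, and 0 called does not show that these cells are unaffected. The part of these markers in the differences above was not tested.

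Promoter sequences were searched for the D-box core, the letters TTATGTAA or TTACGTAA on either strand (TTACATAA is the other strand of the first), in the window from 250 bases before to 50 after each RefSeq start. These were taken from RefSeq on GRCm38.p6, and 347 of 32851 promoters (1.06%) held a match. Among genes with 1 listed promoter, 4 of 31 called genes held one (12.9%), 3 of 23 higher and 1 of 8 lower, against 149 of 14276 genes tested (1.04%). Counting genes with any number of promoters, the share was 5 of 43 called genes, against 196 of 16918. The 5 were Slc17a1, 4833411C07Rik, Coq10b and Smim10l1, all higher in NFIL3 KO livers, and Dhx37, which was lower; a match is a description of the letters and not of binding. For 4 of them, chosen to show where the core lies before the start, the window is printed 5′ to 3′ on the gene's strand with the core in capitals.
Slc17a1, chr13:23868768-23869067 (+ strand): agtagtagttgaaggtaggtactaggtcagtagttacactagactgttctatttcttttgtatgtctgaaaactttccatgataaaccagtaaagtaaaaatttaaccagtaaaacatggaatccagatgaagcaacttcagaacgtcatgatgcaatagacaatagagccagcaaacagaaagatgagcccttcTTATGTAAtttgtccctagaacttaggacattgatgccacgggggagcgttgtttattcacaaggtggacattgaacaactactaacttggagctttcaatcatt
4833411C07Rik, chr8:10899672-10899971 (+ strand): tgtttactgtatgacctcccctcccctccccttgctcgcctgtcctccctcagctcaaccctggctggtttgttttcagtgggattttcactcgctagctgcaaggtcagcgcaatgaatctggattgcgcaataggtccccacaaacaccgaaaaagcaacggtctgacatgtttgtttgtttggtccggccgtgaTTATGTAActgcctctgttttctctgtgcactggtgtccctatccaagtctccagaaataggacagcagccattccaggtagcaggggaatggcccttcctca
Coq10b, chr1:55052520-55052819 (+ strand): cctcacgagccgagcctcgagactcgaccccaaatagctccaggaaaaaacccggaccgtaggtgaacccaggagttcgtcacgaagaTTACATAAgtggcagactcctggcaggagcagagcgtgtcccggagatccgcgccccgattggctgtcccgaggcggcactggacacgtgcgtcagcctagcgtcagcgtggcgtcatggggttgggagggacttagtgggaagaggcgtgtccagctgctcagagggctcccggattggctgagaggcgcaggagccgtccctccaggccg
Dhx37, chr5:125433999-125434298 (- strand): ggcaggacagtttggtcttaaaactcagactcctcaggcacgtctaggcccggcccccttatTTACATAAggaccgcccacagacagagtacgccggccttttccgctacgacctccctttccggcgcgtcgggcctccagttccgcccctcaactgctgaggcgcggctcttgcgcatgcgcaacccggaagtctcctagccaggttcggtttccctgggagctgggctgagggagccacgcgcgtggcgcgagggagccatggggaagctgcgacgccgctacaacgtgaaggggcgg
The core began 55 bases before the start in Slc17a1, 53 in 4833411C07Rik, 162 in Coq10b and 188 in Dhx37. Coq10b, which encodes a coenzyme Q-binding protein of mitochondria, had 9.16, 9.45, 9.21, 9.31 and 9.25 in NFIL3 KO livers, against 8.77, 8.69, 8.89, 8.42 and 8.77 in WT livers given tunicamycin (difference 0.57, adjusted p = 0.0273). It lost that call without NFIL3 KO replicates 2, 4 or 5 or WT replicates 2 or 4 (adjusted p up to 0.09998). Dhx37 went the other way, with 7.43, 7.23, 7.34, 7.67 and 7.69 in NFIL3 KO livers and 7.75, 7.92, 7.84, 8.14 and 7.97 in WT livers. Smim10l1 held the core at 2 places, 214 and 24 bases before the start, and was higher by 0.49 (adjusted p = 0.0399; called only without NFIL3 KO replicate 3 or WT replicate 4 when 1 tunicamycin array was left out, up to 0.135 otherwise). Auh, Adra1b, Apoa5 and Gsta3 held no match in the windows listed for them, which says only that these letters are not in those windows.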

How the data were processed

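Liver RNA of 20 mice (4 groups of 5 arrays) was hybridised by the authors to Affymetrix MoGene arrays with 1 array per mouse. The deposited values are log2 intensities per probeset, which the authors made with Partek by RMA (background correction, quantile normalization and median polish over all arrays). Such joint scaling assumes that most transcripts do not differ. The deposited annotation gives 1 gene symbol to 23521 of the 41345 probesets, several to 1820 and none to 16004, and the 23521 were averaged into 22180 genes. Gene order and promoters came from RefSeq tables of GRCm38.p6, with 23328 of the 23521 probesets matched by gene ID.

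Groups came from the array titles, and each mouse counts as 1 replicate. A model of group means over all 20 arrays was estimated in limma (version 3.58.1, R version 4.3.3) with moderated variances, and NFIL3 KO minus WT was tested under tunicamycin, under vehicle and as the interaction. P-values were two-sided and adjusted by Benjamini-Hochberg over all genes or probesets, with 0.05 as the threshold, and intervals are at 95%. No filter on dim probesets was applied, and levels are not comparable between genes, since probes differ in brightness.

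The genes named are Nfil3, Hlf, Tef, Dbp, 5 xenobiotic genes of the study, called neighbours of Nfil3, the 15 largest rises and falls among called genes whose groups do not overlap (predicted genes, small RNAs and pseudogenes excepted) and the leading members of each list; others were named after their values were seen. The comparison, the members and the lists were chosen with earlier results of these data known. Alternatives were the 10 tunicamycin arrays alone, cyclic loess, subtraction of array medians, leaving out genes below the median brightness, trend and robust moderation, no moderation, array weights, the replicate number as a block, and leaving out each array.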

Additional observations from a re-analysis of the deposited data

Results flagged for a closer look

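Among 60 genes, which gave 120 groups of 5 arrays, 8 groups held a single array far from the other 4 by Dixon's ratio (above 0.71). Chance flags about 1 in 20 such groups. In NFIL3 KO livers given tunicamycin, Auh was 7.57 in replicate 3 against 8.20 to 8.38 on the other arrays, Nat8 was 5.76 in replicate 3 against 6.33 to 6.43, and Gm6614 was 10.1 in replicate 2 against 9.85 to 9.93. Without NFIL3 KO replicate 3, the difference of Auh was 2.34 and that of Nat8 1.23.

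In WT livers given tunicamycin, Gria3 was 6.40 in replicate 2 against 6.71 to 6.80 on the other arrays, Arsa was 7.05 in replicate 4 against 6.53 to 6.67, and Ank3 was 6.77 in replicate 1 against 7.10 to 7.18. Fam187b was 4.81 in WT replicate 5 against 5.18 to 5.31, and Fmo5 was 10.1 in WT replicate 1 against 10.5 to 10.6. The causes were not tested.

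The response to tunicamycin differed between the genotypes, by limma's interaction test, for Auh (1.56, adjusted p = 0.00167) and for Adra1b (1.06, adjusted p = 0.0171).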

How the results depend on the processing

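The count of 54 called genes (39 higher, 15 lower) moved most with the arrays and the variance estimate. It was 19 with the 10 tunicamycin arrays alone (16 higher, 3 lower), 35 with array medians subtracted (23 higher, 12 lower) and 29 without moderation; leaving out 1 array gave 26 to 67, the lowest without NFIL3 KO tunicamycin replicate 2 and the highest without NFIL3 KO tunicamycin replicate 3. Cyclic loess gave 55, 72 were called without the genes below median brightness, 56 with trend and robust moderation and 52 with array weights. Of 25 called probesets (0.0605% of those tested; 3283 at an unadjusted p under 0.05), 8 were called with the 10 tunicamycin arrays alone, 38 after cyclic loess, 61 without those below median brightness, and 15 to 31 with 1 array left out. Under vehicle 5 genes were called, with 1 without moderation, 9 with array weights and 2 to 7 with 1 array left out. The interaction called 2 genes, with 1 each after median subtraction, without moderation and with the replicate block, and 1 to 3 with 1 array left out. Auh was the only called neighbour of Nfil3 in every alternative.

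Replicate numbers are shared between groups, and the array titles do not say whether they mark litters or days. The deviations of same-numbered NFIL3 KO and WT tunicamycin arrays correlated at -0.003 to 0.104. Replicate 2 was its own best match under tunicamycin and under vehicle, and the other numbers were not. Such weak correlations cannot exclude a shared litter or day, so the numbers were treated as names only. With the replicate number as a block, 36 genes were called, 35 of them among the 54. Of 2289 single-gene values over the alternatives, 1796 kept direction and side of the threshold, 462 lost the call, 24 gained one and 7 turned direction. The 7 were Hlf after cyclic loess (0.000501), without NFIL3 KO replicate 1 (0.026), NFIL3 KO replicate 2 (0.041) or WT replicate 3 (0.076), Slc17a2 without NFIL3 KO replicate 4 (0.0099) or WT replicate 3 (0.0055), and Apoa1 without WT replicate 3 (0.007005). With 1 array left out, Hlf ran from -0.12 to 0.08, Slc17a2 from -0.18 to 0.0099 and Apoa1 from -0.060 to 0.007005. Of 1622 list medians 1617 moved by less than the spread between arrays. The share of called genes with a D-box core was 5.56% to 16.7% with 1 array left out. The causes of these shifts were not tested.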
